A study of Mus musculus with 41 samples.

Results

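Acta2, Myh11, Cnn1, Mylk, Tagln and Oxtr are 6 genes of the contractile program of mammary myoepithelial cells. They were found by symbol among the 47480 gene symbols of an RNA-seq table of 41 mouse mammary tumors, and all 6 were measured in every tumor. Of the tumors, 28 were Plk2-/-; p53-/- and 13 were p53-/- with Plk2 present, all on the Balb/c background, so that both groups lack p53. The Plk2-/-; p53-/- tumors arose from mammary epithelial cells (MEC) of knockout mice after transplantation into epithelium-free fat pads of wild-type Balb/c hosts, the p53-/- tumors came from an older bank made in a similar way, and tumors of both genotypes were passed on by serial transplantation and left untreated. Each library is bulk tumor RNA and therefore also holds RNA of host stroma and vessels. In bulk samples, fewer cells of a type and less RNA per cell cannot be told apart. The sources do not give the ages of the mice or which transplant descends from which tumor, so p-values measure the spread between these samples, some of which may be related. Single tumors are given by their label's number after PLK2null or p53null, for example PLK2null-1965.

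Myoepithelial cells form the basal layer of mammary ducts and alveoli and squeeze milk out when oxytocin reaches them. They carry basal keratins such as Krt5 together with a smooth muscle type of contractile apparatus. The same contractile genes are also active in vascular smooth muscle and in pericytes, the Pdgfrb-positive cells that wrap small vessels, so Krt5 and Pdgfrb were used here as the 2 reference genes. Oxtr encodes the oxytocin receptor. Mylk encodes the kinase that phosphorylates myosin light chain, Acta2 encodes smooth muscle alpha-actin, Myh11 encodes smooth muscle myosin heavy chain, and Cnn1 (calponin) and Tagln (transgelin) encode actin-binding proteins of the same apparatus.

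In the GRCm38 mouse genome (GENCODE vM21), Oxtr lies on the minus strand at chr6:112473683-112489943 and Mylk on the plus strand at chr16:34745210-35002420. Myh11 lies on the minus strand at chr16:14194535-14291372 and Acta2 on the minus strand at chr19:34241090-34255590. Cnn1 and Tagln share chromosome 9, Cnn1 on the plus strand at chr9:22099216-22109630 and Tagln on the minus strand at chr9:45929619-45936058. The protein of Acta2 is nearly identical to those of other actin genes such as Actg2 and Acta1. Where their transcripts are also alike, the values of Acta2 carry an uncertainty in how reads were divided among them.

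Serum response factor is a well-known activator of smooth muscle contractile genes, and it binds a short motif called the CArG box. RefSeq promoters on GRCm38.p6, each running from 250 bases before to 50 bases after a gene start, were matched for 4 of the 6 genes (Acta2, Cnn1, Mylk and Oxtr). Myl9, a myosin light chain gene that followed Acta2 and Myh11 most closely across tumors, was searched beside them. The Mylk promoter searched, at chr16:34784700-34784999, lies inside the GENCODE model of Mylk, far downstream of its start. The region before the GENCODE start of Mylk was therefore not searched. On both strands, an intact CArG box stood in none of the 4 promoters, 1 time in Myl9 and in 1.63% of 32851 promoters of this length. With at most 1 base other than A or T allowed in its middle, a form chosen after the intact motif had been searched and that includes it, the motif stood in 9.98% of promoters, 2 times in Acta2 and 2 times in Myl9, and in none of Cnn1, Mylk and Oxtr. The 4 matches are shown 5′ to 3′ on the strand of the gene to let the letters of the motif be compared, with the motif in capitals and 10 bases on each side.
Acta2, 84 bases before the start: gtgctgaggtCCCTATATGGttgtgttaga
Acta2, 34 bases before the start: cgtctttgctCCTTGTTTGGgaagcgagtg
Myl9, 161 bases before the start: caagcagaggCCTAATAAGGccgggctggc
Myl9, 99 bases before the start: cattcttctgCCTTGTAAGGccgggcggcc
The Acta2 matches lie on the minus strand at chr19:34255438-34255467 and chr19:34255388-34255417. The GENCODE model of Acta2 starts further upstream than the RefSeq start, and both stretches fall in its first, noncoding exon. The Myl9 matches lie on the plus strand at chr2:156775293-156775322 and chr2:156775355-156775384, outside any annotated Myl9 transcript. A match describes letters only and says nothing of whether the factor was bound in these tumors.

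Values are the authors' gene-level estimates, scaled so that the upper quartile of nonzero genes is 1000 in every tumor. The library depth implied by the low values was 29409598 to 70868089 fragments, with a median of 39053967 in the Plk2-/-; p53-/- libraries and 58042747 in the p53-/- libraries. The value of 1 fragment was 0.388 to 0.817, so a count of 0 allows up to 1.16 to 2.45 (3 fragments, counting error only), and every value of the 6 genes lay above this limit. Plk2 itself was lower in the Plk2-/-; p53-/- tumors (log2 difference -3.39, limma adjusted p = 1.30e-09), but p53null-7435, with a Plk2 value of 186, lay inside their range. Skeletal muscle transcripts were high in 3 tumors, p53null-2153L, p53null-7435 and PLK2null-7764, where Acta1 reached 9952, 9883 and 1211. The titles of all p53-/- tumors carry a numbered name, ROSEN, that the other titles lack. Its meaning is not given, and whatever it marks cannot be told apart from genotype.

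The first comparison asked whether the contractile genes differed with Plk2 genotype. Acta2 was lower in Plk2-/-; p53-/- tumors, and the other 5 genes did not pass the test. In both genotypes every gene spanned a wide range, from tumors with little contractile RNA to tumors with a great deal. The basal keratin Krt5 was lower in Plk2-/-; p53-/- tumors as well, while the level of Pdgfrb did not pass the test.

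**Figure D1:**
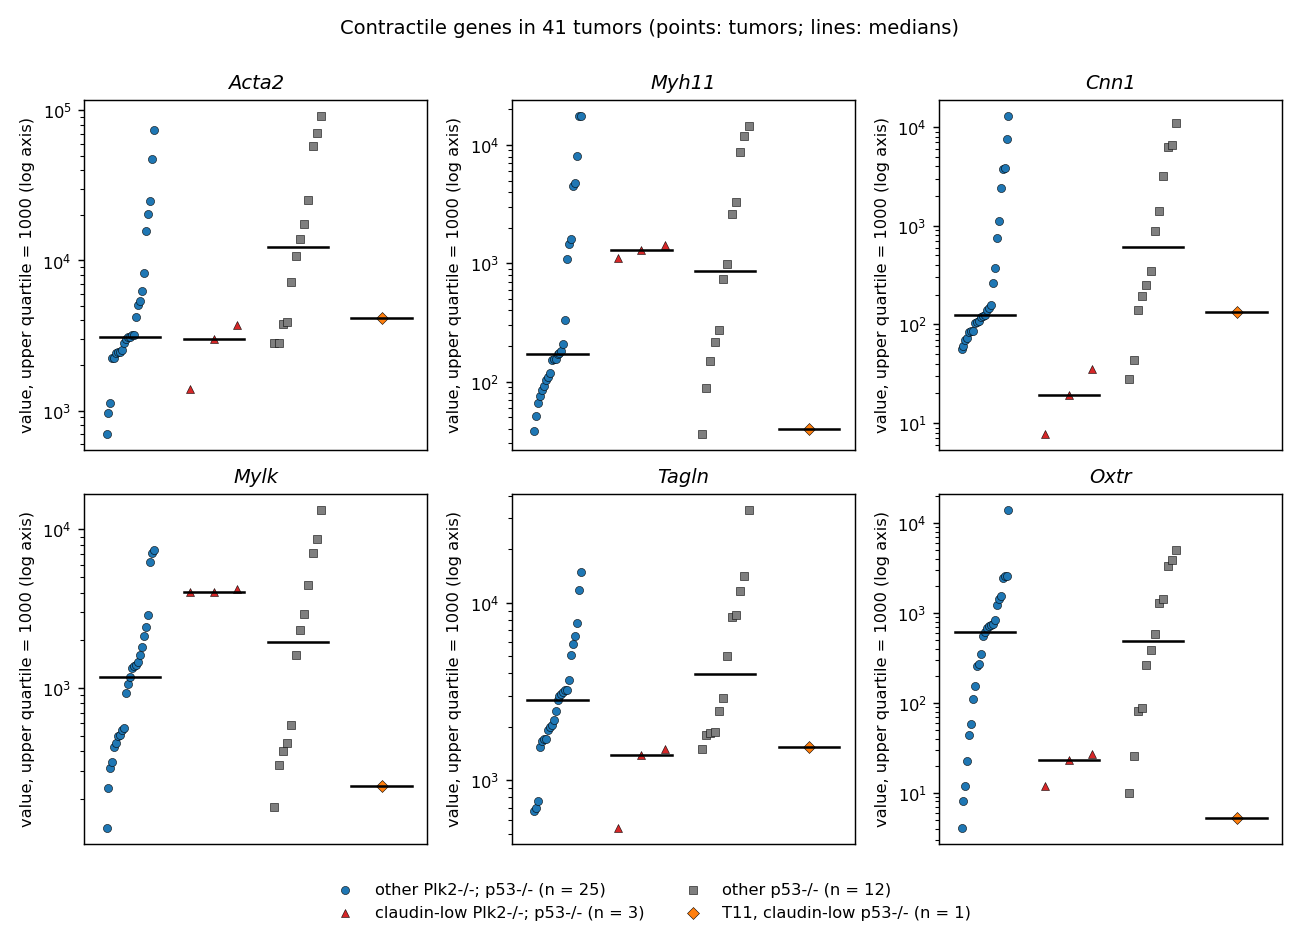
Values of the 6 contractile genes in each of the 41 tumors, on a log axis scaled to an upper quartile of 1000, for 25 other and 3 claudin-low Plk2-/-; p53-/- tumors, 12 other p53-/- tumors and T11. Points are tumors and lines are medians; Cnn1 in the 3 claudin-low Plk2-/-; p53-/- tumors (7.79 to 35.6) lies below all 25 other tumors of that genotype, while Mylk in the same 3 tumors lies between 4015 and 4206.

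Acta2, the actin of the apparatus, ran in the 28 Plk2-/-; p53-/- tumors from 700 in PLK2null-1974 through a median of 3086 to 73591 in PLK2null-1965. In the 13 p53-/- tumors it ran from 2805 in p53null-5317 through a median of 10657 to 92274 in p53null-2224L. The groups overlapped, but 10 of the 28 Plk2-/-; p53-/- tumors lay below every p53-/- tumor. The difference was -1.49 ± 0.55 on the log2 scale (SE, limma adjusted p = 0.0275, permutation p = 0.0117), whereas the median of all 17208 genes tested was 0.10. Among those genes 15.3% were called lower in Plk2-/-; p53-/- tumors and 24.3% higher, so that 1 of 6 called lower is close to the background share. With the p53-/- tumors and the 7 tumors that the study names as primary Plk2-/-; p53-/- tumors alone, the difference was -1.59 with an adjusted p of 0.165 (limma). With Krt5 and Pdgfrb as terms in the fit it was -0.37 (limma adjusted p = 0.582). In that fit the estimates for Myh11, Cnn1, Mylk and Oxtr turned positive, and none of the genes was called.

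Cnn1 and Tagln had medians on the same side as Acta2 but did not pass the test. Cnn1 ran from 7.79 through a median of 120 to 13026 in Plk2-/-; p53-/- tumors and from 28.1 through 349 to 11046 in p53-/- tumors, a log2 difference of -1.43 ± 0.87 (SE, limma adjusted p = 0.194). Tagln ran from 540 through 2315 to 14812 and from 1494 through 2888 to 33448, a log2 difference of -0.81 ± 0.42 (SE, limma adjusted p = 0.119). The ranges overlapped for both genes, although 2 of the 28 Plk2-/-; p53-/- tumors for Cnn1 and 5 of the 28 for Tagln lay below every p53-/- tumor.

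For the motor protein, its kinase and the receptor, the estimated differences were smaller still. Myh11 ran from 38.0 through 178 to 17734 in Plk2-/-; p53-/- tumors and from 36.2 through 739 to 14368 in p53-/- tumors (log2 difference -0.73, limma adjusted p = 0.554). Mylk ran from 132 through 1363 to 7448 and from 179 through 1615 to 13342 (-0.18, limma adjusted p = 0.833). Oxtr ran from 4.09 through 451 to 14126 and from 5.19 through 383 to 5015 (-0.24, limma adjusted p = 0.872). Oxtr had the widest span of the 6 within the Plk2-/-; p53-/- tumors and the largest standard error, so that a sizeable difference in either direction lies within its error.

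Among 16 other genes of the contractile apparatus, 15 could be tested. Of these, 5 were called higher and 2 lower in Plk2-/-; p53-/- tumors. Their median log2 difference was -0.26 beside 0.10 for all genes. Of all genes tested 24.3% were called higher and 15.3% lower, and this is the background for every list in this paragraph. Tpm2, a tropomyosin, fell by 1.59 on the log2 scale, and Cald1 (caldesmon) and Vcl (vinculin), both expressed in many cell types, rose by 1.39 and 0.60. Of 15 tested genes on the path from oxytocin receptor to myosin, 5 were called higher and 2 lower, with Cacna1c, a calcium channel subunit, at 1.23 and Ppp1cb, the catalytic subunit of myosin phosphatase, at -0.66. Of 9 regulators of the contractile genes 2 were higher and none lower by limma, with 2 of 9 against a background of 24.3%. Of 8 basal epithelial markers 3 were lower, Krt5 among them with a log2 difference of -5.13 ± 1.57 (SE, limma adjusted p = 0.00796). Krt5 ran from 0 in PLK2null-1980 through a median of 46.6 to 36680 in Plk2-/-; p53-/- tumors and from 2.38 through 6141 to 57477 in p53-/- tumors. The part of these basal markers in the Acta2 difference was not tested beyond the fit with Krt5 and Pdgfrb given above. Of 7 skeletal muscle markers 4 were called lower in Plk2-/-; p53-/- tumors. The sums of the 7 ran from 32.8 to 3677 in these and from 56.3 to 43914 in p53-/- tumors. The highest sums stood in PLK2null-7764 and p53null-2153L, both among the 3 tumors with high skeletal muscle transcripts. Without the 3 tumors with skeletal muscle transcripts, the Acta2 difference was -1.52 (limma adjusted p = 0.0451).

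The second comparison asked how the contractile genes stood in claudin-low tumors, a class with low claudins and few epithelial traits. PLK2null-732, PLK2null-733 and PLK2null-743 were taken as this class, and T11 as their p53-/- counterpart. The study's text names PLK2null-743 and T11, and the other 2 names were read from the picture of its clustering. In the 3 Plk2-/-; p53-/- tumors the contractile genes did not stand alike. Cnn1 alone was called, and it was lower than in every other tumor of the genotype. Myh11 and Mylk stood in the upper part of the range but did not pass the test. T11 did not share this pattern, with low Myh11 and Mylk. The class was assigned from the expression of these same libraries, so the tests below are not independent of it. The 3 tumors also resembled each other across the 2000 most variable genes, with r of 0.937 to 0.959, so they may not be independent of each other.

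Cnn1 was 19.3 in PLK2null-732, 7.79 in PLK2null-733 and 35.6 in PLK2null-743, and it ran from 56.0 to 13026 in the other 25 Plk2-/-; p53-/- tumors. All 3 claudin-low tumors lay below the other 25. The log2 difference was -3.93 ± 1.36 (SE, limma adjusted p = 0.0238; exact permutation p = 0.00946). Of the 17153 genes tested 17.1% were called lower and 20.2% higher, and 8.87% lay below the other 25 tumors without overlap, so 1 of 6 genes called lower is again near the background. Without PLK2null-732 the limma adjusted p for Cnn1 was 0.0780, and without PLK2null-733 it was 0.135.

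Oxtr and Tagln were at the low end as well. Oxtr was 27.2, 23.4 and 11.9 in PLK2null-732, PLK2null-733 and PLK2null-743, above only a few of the other tumors, and its log2 difference of -3.98 ± 1.61 narrowly missed the threshold (SE, limma adjusted p = 0.0527; exact permutation p = 0.0259). Tagln was 1499, 540 and 1394 in the same order, with a log2 difference of -1.39 (limma adjusted p = 0.0972; exact permutation p = 0.0510). The Tagln value of PLK2null-733 was the lowest of all 41 tumors. Acta2 was 3692, 1399 and 2998, beside a median of 3087 in the other 25 tumors, with a log2 difference of -0.85 (limma adjusted p = 0.516). PLK2null-733 ranked 25 of the 28 Plk2-/-; p53-/- tumors for Acta2.

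Myh11 and Mylk, the motor and its kinase, stood high and close together in these tumors. Myh11 was 1419, 1309 and 1119 in PLK2null-732, PLK2null-733 and PLK2null-743, against a median of 172 in the other 25 tumors. Mylk was 4206, 4033 and 4015, against a median of 1180.2 in the others. Both ranges lay inside those of the other tumors, and the log2 differences were 1.77 for Myh11 (limma adjusted p = 0.387; exact permutation p = 0.304) and 1.96 for Mylk (limma adjusted p = 0.0732; exact permutation p = 0.0351).

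The contrast with Cnn1 was plainest as a ratio within each tumor, in which gene length and library scaling cancel between tumors. Myh11 over Cnn1 was 31.4 to 168 in the 3 claudin-low Plk2-/-; p53-/- tumors, 0.487 to 3.94 in the other 25 and 0.351 to 6.27 in the 12 other p53-/- tumors. Mylk over Cnn1 was 113 to 518, 0.572 to 21.1 and 0.511 to 14.4 in the same order. Neither ratio of the 3 tumors overlapped that of any other tumor, and T11, at 0.294 and 1.81, lay with the others or below them. Over Acta2, Mylk was 1.14 to 2.88 in the same 3 tumors and 0.0813 to 0.643 in the other 25. Acta2 over Tagln, by contrast, was 2.15 to 2.59 in the 3 tumors and 0.873 to 4.97 in the other 25. The ratios to Cnn1 include the low Cnn1 values already given above. All these ratios were formed after the values were seen and carry no test. How many other pairs of genes separate the 3 tumors in this way was not counted.

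**Figure D2:**
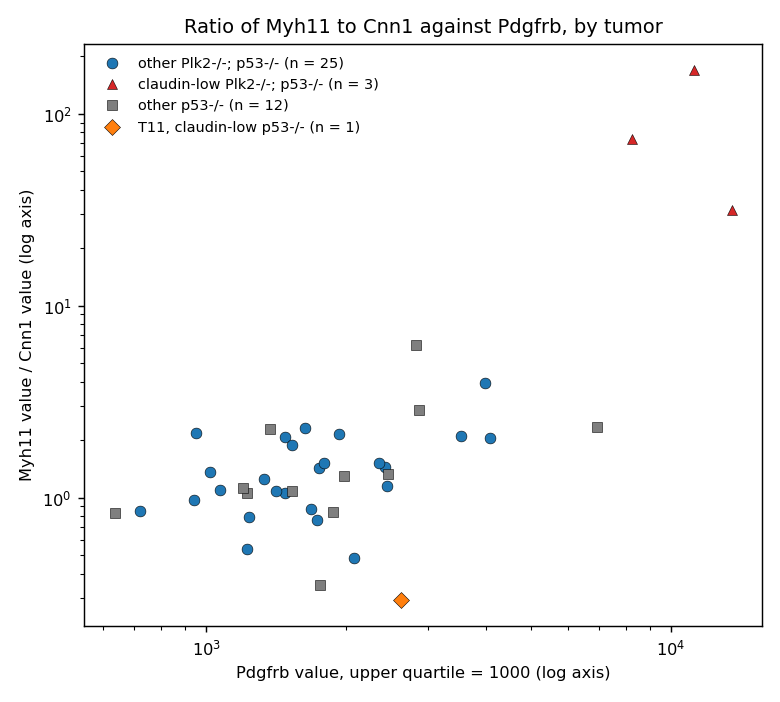
Ratio of the Myh11 value to the Cnn1 value against the Pdgfrb value in each of 41 tumors, both on log axes. The 3 claudin-low Plk2-/-; p53-/- tumors stand alone at the upper right, with ratios of 31.4 to 168, and T11 is the lowest point at 0.294.

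Markers of several other cell types moved with this class, beside a background of 20.2% of all genes called higher and 17.1% lower. Pdgfrb was 8234, 11246 and 13518 in PLK2null-732, PLK2null-733 and PLK2null-743, above all 25 other tumors of the genotype (log2 difference 2.70, limma adjusted p = 1.52e-06; exact permutation p = 0.00030525, the smallest that 3 against 25 allows). All 8 pericyte and mural markers were higher in the 3 tumors, and their summed values were 90928 to 107643 against 3445 to 36792 in the other 25. All 6 endothelial markers were higher too, with sums of 165585 to 186496 against 2572 to 78025. Of 5 adipocyte markers, 4 could be tested and 1 was higher. This was Fabp4, a fatty acid binding protein that capillary endothelium also expresses, at 99093 to 124638 against 225 to 51564. In the other direction, 6 of 8 basal and 6 of 6 luminal markers were lower, the basal sum being 71.7 to 441 against 4022 to 87023 and the luminal sum 46.9 to 316 against 17323 to 112613. The basal cadherin Dsg3 was listed at 0 in all 3 tumors, and Krt5 was 102, 19.8 and 7.91. Of 7 fibroblast markers 3 were lower, with sums of 15020 to 56419 against 12272 to 281163. The part of these cell types in the contractile pattern was not tested.

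T11 differed from the 3 tumors in both respects. Its Pdgfrb was 2627, its mural sum 9101 and its endothelial sum 6876, all inside the range of the other p53-/- tumors. So was its fibroblast sum of 225650, where the others ran from 21514 to 251136. Its luminal sum was 33754 and its basal sum 1536, both below every other p53-/- tumor. Both lay above the 3 Plk2-/-; p53-/- tumors, whose sums were 46.9 to 316 and 71.7 to 441. Acta2 was 4129 in T11, Tagln 1545, Cnn1 134, Mylk 242, Myh11 39.4 and Oxtr 5.19. For 5 of the 6 genes T11 ranked between 11 and 13 of the 13 p53-/- tumors, and for Acta2 it ranked 9. T11 is a single tumor, and its difference from the other 3 was not tested, apart from the rule for outlying values under the flagged results below.

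Between these extremes stood PLK2null-7763, which was not classed as claudin-low. Its Pdgfrb of 3987, mural sum of 36792 and endothelial sum of 78025 were among the highest outside the claudin-low tumors. Its Myh11 was 1456, its Mylk 2426, its Cnn1 370 and its Krt5 6097, and its ratio of Myh11 to Cnn1, 3.94, was the highest of the 25.

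Of 15 tested genes of the rest of the contractile apparatus, 3 were higher and 3 lower in the claudin-low tumors, near the background of 20.2% and 17.1%, with a median log2 difference of 0.30 beside 0.02 for all genes. Actg2, the other smooth muscle actin, fell by 3.84 on the log2 scale and Lmod1 (leiomodin) fell by 2.78, while Des (desmin, the intermediate filament of muscle) rose by 2.48 and Smtn (smoothelin) by 1.28. Trp63, the basal transcription factor, fell by 4.66 and Tgfb1 rose by 1.74 among 9 regulators, the only 2 called. Along the oxytocin path 3 of 15 genes were higher and 3 lower, again near the background. Itpr3, a calcium release channel, fell by 2.63 on the log2 scale.

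The third comparison related the 6 genes to Krt5. Over all tumors, all 6 rose with Krt5 when Pdgfrb and genotype were held in the same fit, with the steepest slopes for Myh11, Oxtr and Cnn1 and the shallowest for Tagln. Krt5 itself fell into a low and a high cluster of tumors, split at a gap found after the data were seen. Within neither cluster did a slope pass the test. In the high cluster no gene of the whole table passed either, so these fits cannot decide the shape of the relation. The highest value of each gene stood in the high cluster, although Oxtr was also high in some tumors of the low cluster.

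On the log2 scale, each doubling of Krt5 went with a change of 0.45 ± 0.06 in Myh11 (SE, limma adjusted p = 1.78e-06), 0.37 ± 0.08 in Oxtr (0.000708) and 0.35 ± 0.06 in Cnn1 (4.97e-05). It went with 0.22 ± 0.04 in Acta2 (limma adjusted p = 0.000372), 0.22 ± 0.05 in Mylk (0.000579) and 0.13 ± 0.04 in Tagln (0.0106). Of 17206 genes tested 24.3% had a called positive slope and 8.67% a negative one, against 6 of 6 positive here. The 6 are not separate results, since the 5 other than Oxtr had pairwise r of at least 0.816 over the 37 tumors outside the claudin-low class. They were also chosen with earlier results of these data known. Under median-ratio rescaling the share of all genes with a called positive slope fell to 16.2% against 13.4% negative, and the 6 genes remained called. The same 6 were called in the 37 tumors outside the claudin-low class and in the 28 Plk2-/-; p53-/- tumors alone. In the 13 p53-/- tumors alone none was called by limma, although the slopes were 0.18 to 0.46 and 5 of 6 had an unadjusted p under 0.05, and only 0.042% of all genes had a called positive slope there. In the p53-/- tumors with the 7 primary Plk2-/-; p53-/- tumors Myh11 alone was called. No slope was shown to differ between the genotypes, with interaction p-values of 0.665 to 0.997 after adjustment (limma), where 0.349% of all genes were called and 0 of the 6 had an unadjusted p under 0.05.

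**Figure D3:**
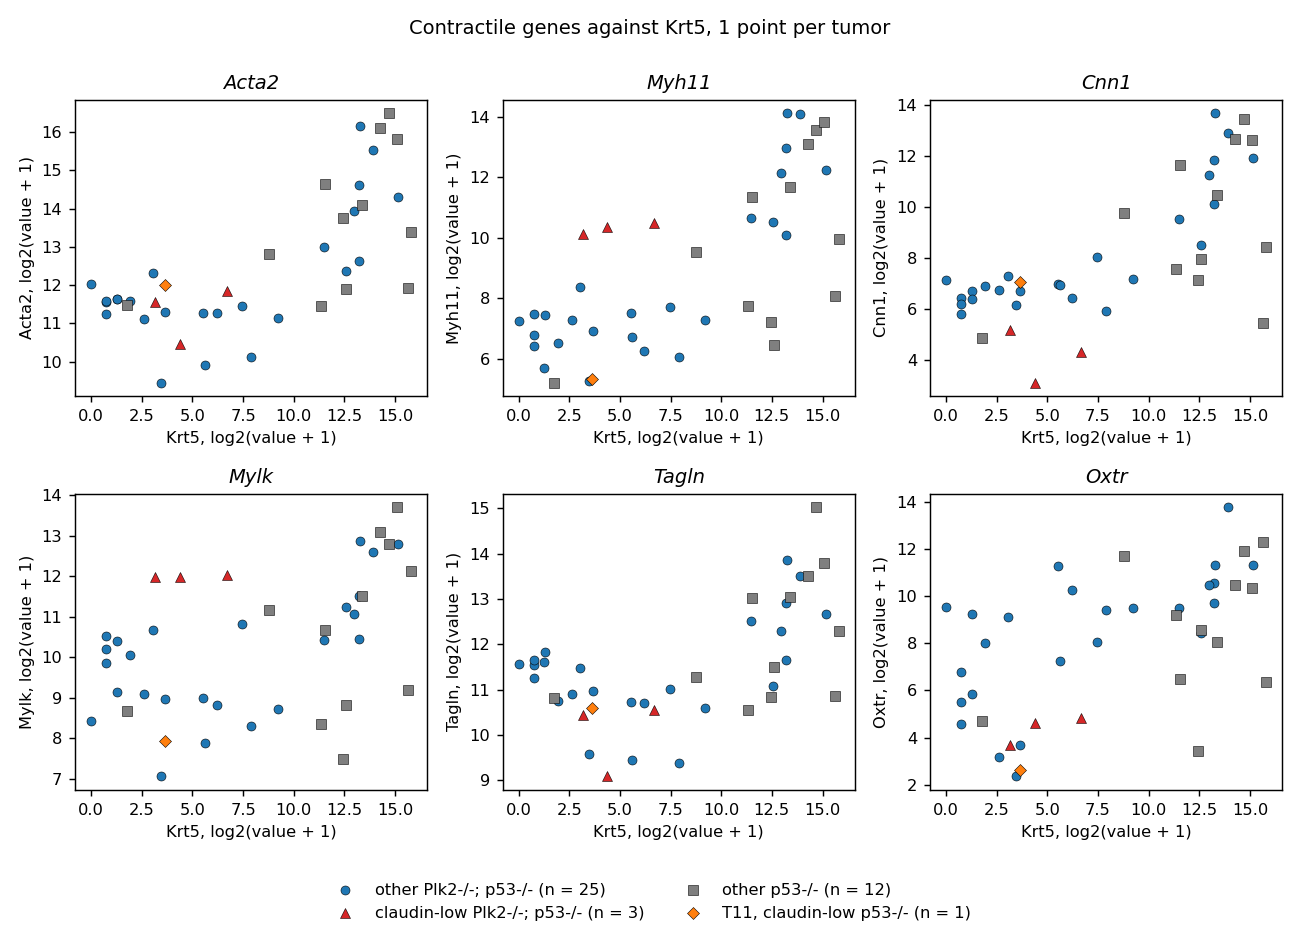
Each contractile gene against Krt5, both as log2(value + 1), with 1 point per tumor and colors for the 4 groups. Tumors with Krt5 of 594 or less and of 2590 or more are separated by a gap of 2.12 on the log2 axis. To the left of it Pearson's r lies between -0.467 for Tagln and 0.396 for Oxtr. The single highest value of each gene lies to the right of it, while some high Oxtr values lie to the left.

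On the log2 scale the largest gap in Krt5 lay between 594 in PLK2null-7753 and 2590 in p53null-5317, a distance of 2.12 where the next largest gap was 1.17. Below it stood 23 tumors, 20 of them Plk2-/-; p53-/- and 3 of them p53-/-, and above it stood 18, 8 Plk2-/-; p53-/- and 10 p53-/-. In the tumors below the gap Acta2 ran from 700 to 7134, Myh11 from 36.2 to 1419 and Cnn1 from 7.79 to 881. In those above it Acta2 ran from 2805 to 92274, Myh11 from 87.6 to 17734 and Cnn1 from 43.3 to 13026. The ranges overlapped for every gene, and the low values above the gap came from p53-/- tumors, since the 8 Plk2-/-; p53-/- tumors there had an Acta2 of at least 5336, a Myh11 of at least 1084 and a Cnn1 of at least 370. In the 20 Plk2-/-; p53-/- tumors below the gap Acta2 was at most 5064, Cnn1 at most 264 and Myh11 at most 1419, the last in the claudin-low PLK2null-732. How many of all genes separate these 8 and 20 tumors was not counted. Nothing particular to the contractile genes can therefore be read from these ranges. The gap was found after the data were seen, and no test was made between its sides.

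Because the tumors fall into these clusters, correlations with Krt5 are given within each, with p-values adjusted over 6 relations. Above the gap, Pearson's r was 0.148 for Cnn1 to 0.543 for Mylk and none passed (lowest adjusted permutation p = 0.120), while Spearman's rho was 0.327 to 0.655 and passed for Mylk (adjusted permutation p = 0.0242). Without p53null-10151 and p53null-5329, the tumors with the highest Krt5, r was 0.555 to 0.771, so these 2 tumors decided the values above the gap. Within the 8 Plk2-/-; p53-/- tumors above the gap r was 0.298 to 0.737 and none passed by the exact permutation test, while rho passed for Oxtr at 0.929, Cnn1 at 0.857 and Mylk at 0.833 (adjusted exact permutation p = 0.0134, 0.0308 and 0.0308). Within the 10 p53-/- tumors above the gap r was 0.104 to 0.588 and none passed (lowest adjusted permutation p = 0.459). Below the gap, r was -0.467 for Tagln to 0.396 for Oxtr and none passed (lowest adjusted permutation p = 0.143). Spearman's rho passed there for Tagln alone, at -0.625 (adjusted permutation p = 0.00996), and in the 20 Plk2-/-; p53-/- tumors of this cluster Tagln had an r of -0.575 and a rho of -0.720 (adjusted permutation p = 0.0466 and 0.00264). In 6 of these tumors, all Plk2-/-; p53-/-, Krt5 was at or under 3 fragments, where its order cannot be read. Without them, Tagln had an r of -0.0721 and a rho of -0.186 over the other 17 tumors of both genotypes (adjusted permutation p = 0.911 and 0.706). Over the 14 of these that were Plk2-/-; p53-/- it had an r of -0.170 and a rho of -0.305 (adjusted permutation p = 0.871 and 0.712). None of the 6 genes passed in either set. Over the 17 tumors Oxtr came near, with an r of 0.620 and a rho of 0.588 (adjusted permutation p = 0.0563 and 0.0881). The Tagln relation below the gap therefore rests on the tumors at the limit of detection. The 3 p53-/- tumors below the gap were too few for a value.

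In the same limma fit, no slope on Krt5 was called within the 18 tumors above the gap, where the slopes were 0.35 to 0.84, 2 of 6 had an unadjusted p under 0.05 and no gene of the whole table was called. None was called within the 23 tumors below it either, where Acta2 had a slope of -0.04, Tagln of -0.14 and Oxtr of 0.39, 2 of 6 had an unadjusted p under 0.05 and 4.95% of all genes had a called positive slope.

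A set of 7 tumors, 4 of them Plk2-/-; p53-/-, stood among the 8 highest for at least 5 of the 6 genes. PLK2null-1965, PLK2null-1971 and p53null-2224L did so for all 6 genes, and PLK2null-1963, PLK2null-7747, p53null-10152 and p53null-2331L for 5. Their Krt5 values were 9505 to 36680. In PLK2null-1971, for example, Acta2 was 47596, Myh11 17583, Cnn1 7601 and Oxtr 14126, beside a Krt5 of 15274. PLK2null-1963, PLK2null-1964, PLK2null-1965 and PLK2null-7747 resembled each other across the 2000 most variable genes, with r of 0.627 to 0.888 where the median over all pairs of tumors was 0.013, so they may not be independent.

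High Krt5 did not always go with high contractile genes. The highest Krt5 values were 57477 in p53null-10151 and 50880 in p53null-5329. In p53null-10151, Cnn1 was 349, Acta2 10657 and Oxtr 80.3, in the middle or lower part of the p53-/- range, while Mylk, at 4481, ranked 4 of the 13. In p53null-5329, Cnn1 was 43.3 and Acta2 3885, whereas Oxtr, at 5015, was the highest of the p53-/- tumors. Oxtr was also high where Krt5 was not, at 3305 in p53null-7435 (Krt5 434) and at 2470 in PLK2null-1988 (Krt5 45.6). In p53null-2153L, Acta2 was 13903 beside a Myh11 of 149, a Cnn1 of 141 and a Mylk of 179, the lowest Mylk of the p53-/- tumors, and this is also the tumor with the highest Acta1.

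Of the other contractile apparatus genes, 3 of 15 had a called positive slope on Krt5 and 1 a negative one, against a background of 24.3% and 8.67%. Myl9, the light chain that Mylk phosphorylates, had a slope of 0.31 (limma adjusted p = 1.42e-06), Lmod1 of 0.16 and Tpm2 of 0.15, while Cald1 had -0.14. Among 9 regulators, Trp63 had the steepest slope, 0.54. Srf, the factor that binds the CArG box, and Myocd were not among the 3 called. Myocd was near the limit of detection, with medians of 3.04 in Plk2-/-; p53-/- and 1.55 in p53-/- tumors. The oxytocin path had 3 positive and 2 negative calls among 15 genes, with slopes between -0.08 and 0.06. Cell type markers moved with Krt5 as well. Of 7 tested basal markers 5 had a called positive slope and 1 a negative one, Dsg3 at -0.28. Of 7 tested pericyte and mural markers 3 were called positive, and of 6 endothelial markers 3, with 0 negative in both lists. The slope of the mural marker Cox4i2, 0.23, was close to those of Acta2 and Mylk. The part of these cell types in the slopes of the 6 genes was not tested.

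The fourth comparison related the genes to Pdgfrb at a given level of Krt5. Mylk rose with Pdgfrb and Cnn1 fell, and the other 4 did not pass the test. Neither was called without the claudin-low tumors. The slope was 0.73 ± 0.22 for Mylk (SE, limma adjusted p = 0.0118) and -0.81 ± 0.29 for Cnn1 (SE, limma adjusted p = 0.0335). It was 0.61 for Myh11 (limma adjusted p = 0.120), -0.06 for Acta2 (0.879), -0.13 for Tagln (0.652) and -0.52 for Oxtr (0.340). Of all genes tested 17.4% had a called positive slope and 11.5% a negative one, so 1 of 6 in each direction is near the background.

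**Figure D4:**
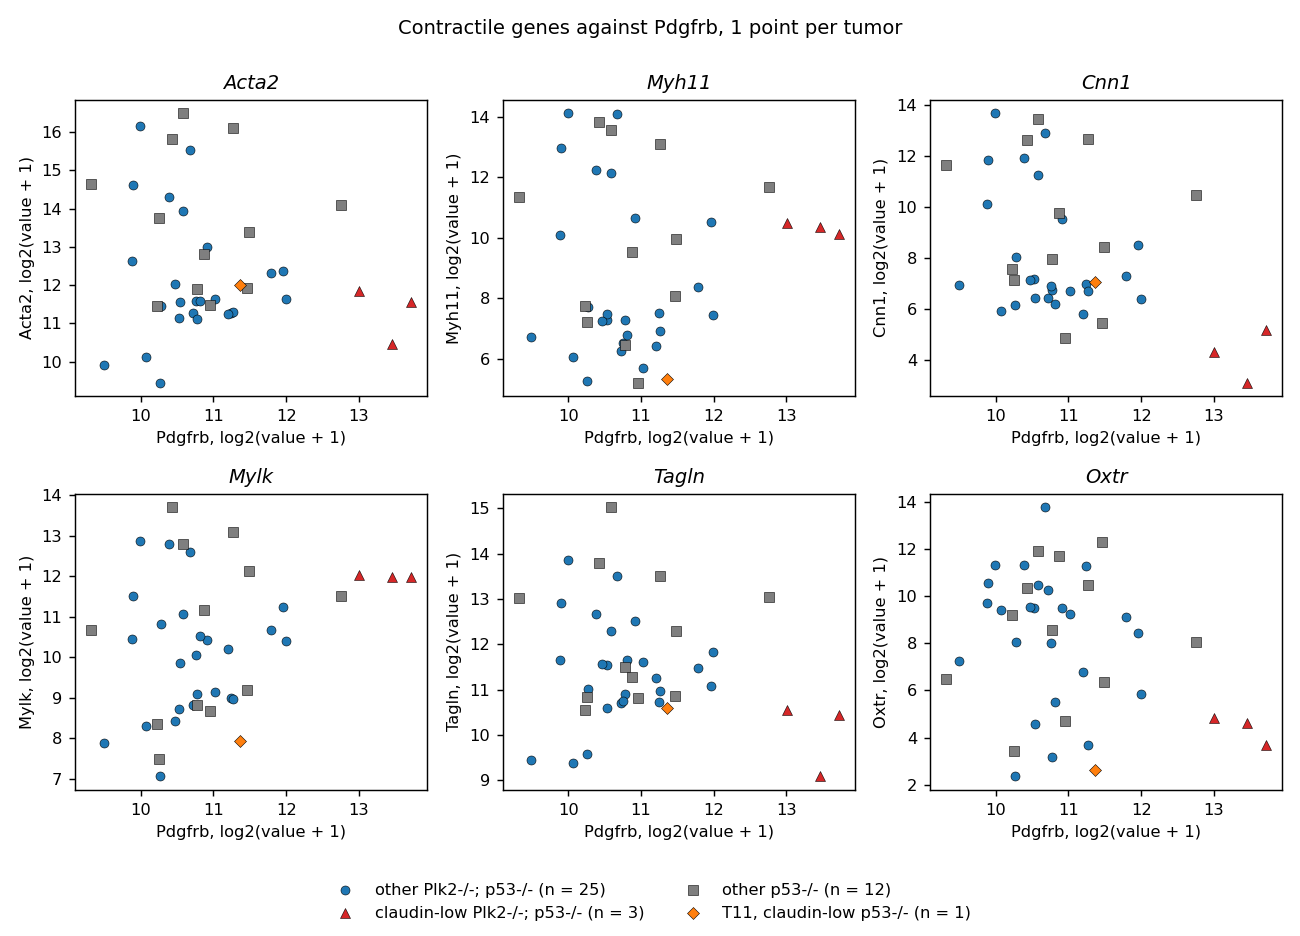
Each contractile gene against Pdgfrb, both as log2(value + 1), with 1 point per tumor and colors for the 4 groups. The 3 claudin-low Plk2-/-; p53-/- tumors stand apart at the right, and among the 37 tumors outside that class Pearson's r lies between -0.204 for Cnn1 and 0.160 for Mylk.

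Without the 4 claudin-low tumors, no slope on Pdgfrb was called for the 6 genes by limma, with 0.58 for Mylk (adjusted p = 0.438) and -0.43 for Cnn1 (adjusted p = 0.700), and 0 of 6 had an unadjusted p under 0.05. At that setting 4.41% of all genes had a called positive and 0.199% a called negative slope. Because the 3 claudin-low Plk2-/-; p53-/- tumors form a separate cluster in Pdgfrb, correlations are given for the 37 tumors outside the claudin-low class. This also leaves out T11, whose Pdgfrb of 2627 lay inside the range of the others. Pearson's r there was -0.204 to 0.160 and Spearman's rho -0.232 to 0.182, with adjusted permutation p-values of at least 0.388 and 0.283. Without p53null-10155 and p53null-2396R, the tumors farthest from the median of Pdgfrb, r was -0.249 to 0.141. In p53null-10155, the p53-/- tumor with the highest Pdgfrb at 6922, Acta2 was 17388, Myh11 3295 and Mylk 2921, beside a Krt5 of 10620. No slope on Pdgfrb was shown to differ between the genotypes (limma interaction adjusted p of 0.421 to 0.933, where 5.07% of all genes were called and 0 of the 6 had an unadjusted p under 0.05).

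**Figure D5:**
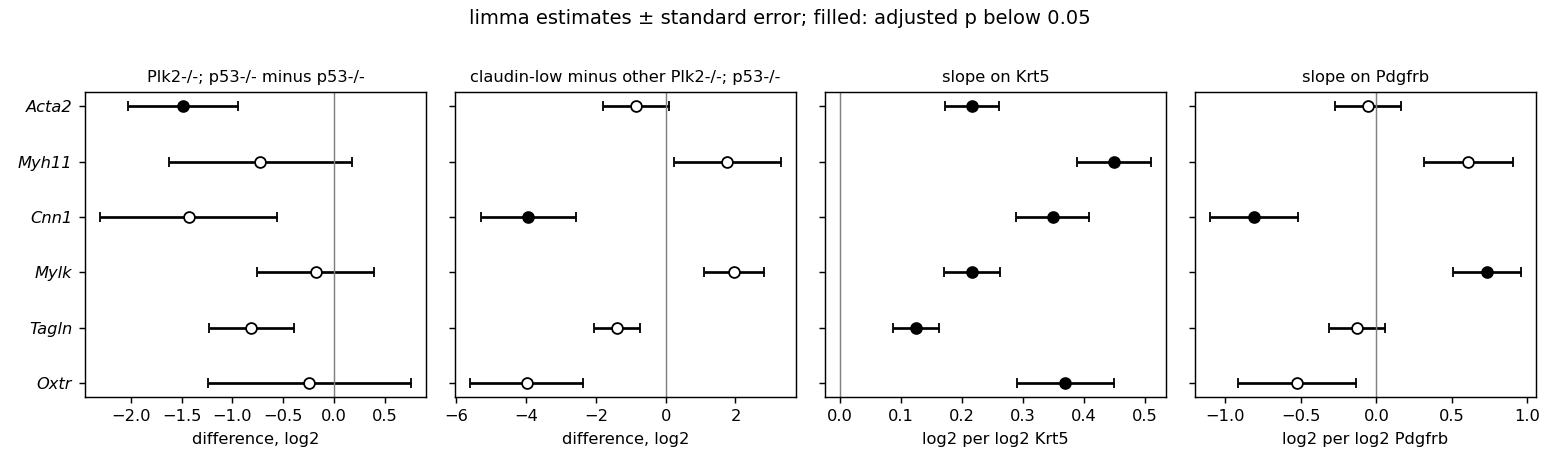
limma estimates for the 6 contractile genes with standard errors as bars, for the difference between genotypes, the difference between claudin-low and other Plk2-/-; p53-/- tumors, the slope on Krt5 and the slope on Pdgfrb. Filled points have an adjusted p below 0.05; all 6 are filled for Krt5, Acta2 for genotype, Cnn1 for the claudin-low class, and Mylk and Cnn1 for Pdgfrb.

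In the other contractile apparatus genes, 3 of 15 rose with Pdgfrb and 2 fell, against a background of 17.4% and 11.5%. The slope was 0.91 for Des and 0.39 for Synpo2, both genes of muscle cells, and -0.76 for Actg2 and -0.38 for Tpm1.

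Among themselves, the 5 structural and kinase genes followed each other closely and Oxtr did so less. Over the 37 tumors outside the claudin-low class, Pearson's r on the log2 scale was 0.957 for Myh11 with Cnn1, 0.933 for Acta2 with Tagln and 0.921 for Acta2 with Myh11. The lowest r among the 5 was 0.816, for Cnn1 with Mylk. Oxtr had an r of 0.437 to 0.571 with the other 5. With the claudin-low tumors added, r fell to 0.794 for Myh11 with Cnn1 and to 0.592 for Cnn1 with Mylk, while Acta2 with Tagln stayed at 0.925. These are descriptions over tumors that may share descent.

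Over the 41 tumors, the genes with the highest r were found for each of the 6. For Acta2 and Myh11 the nearest gene was Myl9, with r of 0.929 and 0.915. For Cnn1 and Tagln it was Acta2, with 0.893 and 0.925, and for Mylk it was Myh11, with 0.871. Lmod1 followed Tagln at 0.793, and Arhgap20 followed Acta2 and Cnn1 at 0.835 and 0.847. The 5 genes nearest to Oxtr held none of the other members and were Ddo, Ubxn11, Derl3, Kank4 and Pdk2, with r from 0.792 down to 0.776. Slc2a4, the insulin-responsive glucose transporter, and Psd2 followed Myh11 at 0.883 and 0.860, and Krt71 and Fgf1 followed Cnn1 at 0.842 and 0.840. The genes nearest to Mylk after Myh11 were Plxdc2, Speg, Mrvi1 and Sh3bp5, at 0.841 to 0.819.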

How the data were processed

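RNA of 41 untreated mouse mammary tumors was sequenced as paired reads of 50 bases from mRNA libraries. Per the labels' processing notes, the submitters used STAR 2.7.6a, SAMtools, Picard 2.22.4 and Salmon 1.4.0 with mm10. The authors deposited the gene-level estimates as a linear signal, scaled to an upper quartile of 1000 in each tumor. The gene annotation used for quantification is not given in the sources used here. Low values lay within 0.1 of whole multiples of 1 fragment for only 77.8 to 80.5% of values, so no count model was used.

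Genotype came from the labels. The claudin-low class, and the 7 primary tumors, came from the study and not from the labels. The members and gene lists were chosen with earlier results of these data known. Tests used log2(value + 1), for genes averaging 10 or more over the tumors fitted, with limma 3.58.1 (R 4.3.3) without a trend. Benjamini-Hochberg adjustment ran over all genes tested, with a threshold of 0.05, and a gene past it is said to be called. A difference on the log2(value + 1) scale understates changes of low genes. Permutation tests were two-sided, with 100000 resamples for 28 against 13 tumors and for correlations, and exact over 3276 splits for 3 against 25. Correlation p-values were adjusted over 12 relations (the 6 genes with Krt5 and Pdgfrb) or, within the Krt5 clusters, over 6, and were exact for 8 tumors. Each tumor entered as 1 sample. Genes named beside the 6 were the 5 with the highest r for each, and up to 4 called genes per list with the largest change. Some genes that this rule would name are not reported here. The scripts were tested on simulated data. Alternatives changed the pseudocount, filter, trend, scaling, tumors and terms of the fit, among them those without 3 tumors with skeletal muscle transcripts, on either side of the largest gap in Krt5, or there without tumors whose Krt5 was at or under 3 fragments, added after the data were seen. Positions came from GENCODE vM21 and promoters from RefSeq on GRCm38.p6. Other steps ran in Python 3.11.15 (scipy 1.17.1, numpy 2.4.6, matplotlib 3.10.9, pandas 2.3.3).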

Additional observations from a re-analysis of the deposited data

Results flagged for a closer look

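Within each of 16 sets of 4 to 10 tumors, the gap from the lowest or highest tumor to its nearest neighbor was compared with the whole range. In this way 3 values stood far apart. For independent tumors of 1 kind, chance gives about 1 in 20. All 3 came from the 4 claudin-low tumors of both genotypes. Across the 2000 most variable genes, T11 had r of 0.467 to 0.513 with the other 3, which had 0.937 to 0.959 with each other. That rate therefore does not hold in this set, where T11 differed in kind from the start. Myh11 in T11, at 39.4, lay far below the other 3 tumors, and so did Mylk in T11, at 242. Tagln in PLK2null-733, at 540, lay far below PLK2null-732, PLK2null-743 and T11.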

How the results depend on the processing

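Of the 6 genes, 1 was called lower by genotype, 1 lower in claudin-low tumors, 6 positive on Krt5 and 1 in each direction on Pdgfrb. With the 7 primary Plk2-/-; p53-/- tumors and the p53-/- tumors, these counts were 0 by genotype, 1 on Krt5, and 0 positive and 0 negative on Pdgfrb. With Krt5 and Pdgfrb as terms, 0 were called lower by genotype. In the claudin-low tumors 2 were called lower (Cnn1 and Oxtr) with a pseudocount of 10, an intensity trend, median-ratio rescaling or quantile normalization, and leaving out each of the 3 tumors gave 0 to 1. On Pdgfrb, 0 were negative with a pseudocount of 10, 0 positive without Krt5 in the fit, 0 in either direction without the claudin-low tumors, and 2 positive (Myh11 and Mylk) in the 28 Plk2-/-; p53-/- tumors. Above and below the largest gap in Krt5, 0 were called on Krt5. In the 13 p53-/- tumors alone, 0 were called on Krt5 and 0 in either direction on Pdgfrb. At an unadjusted p under 0.05, limma gave 1 of 6 by genotype with the primary tumors and 1 with Krt5 and Pdgfrb as terms. In the latter fit the gene was not Acta2, whose adjusted p there lay far above the threshold. For the claudin-low comparison limma gave 3 without PLK2null-732 and 1 without PLK2null-733. Over all alternatives, 215 values of single genes kept their direction and side of the threshold, 33 lost a call and 5 gained one. The cause of these changes was not tested.

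Acta2 and Tagln, called positive on Krt5 over all tumors, had slopes of -0.044 and -0.136 below the gap. The other values that turned direction had not passed the test. By genotype, Oxtr was 0.63 with the primary tumors and 0.0528 without p53null-7435, and with Krt5 and Pdgfrb as terms Myh11 was 1.53, Cnn1 0.43, Mylk 0.87 and Oxtr 1.70. On Pdgfrb, without the claudin-low tumors Acta2 was 0.0474, Tagln 0.21 and Oxtr 0.26. With the primary tumors Myh11 was -0.0582, Tagln 0.0561 and Oxtr 0.10. Acta2 was 0.0217 in the 28 Plk2-/-; p53-/- tumors, and Myh11 was -0.18 and Oxtr 0.13 in the 13 p53-/- tumors.

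Median-ratio rescaling moved the median genotype difference of all genes from 0.0965 to -0.0175. It moved the shares of all genes called higher and lower by genotype from 24.3% and 15.3% to 19.7% and 20.3%, and those with positive and negative slopes on Pdgfrb from 17.4% and 11.5% to 15.4% and 14.1%. Quantile normalization gave 14.1% positive and 15.7% negative on Krt5. No paired analysis was possible because the tumors carry no replicate numbers shared between genotypes.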
